A study of Mus musculus with 6 samples.

Results

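Sarcomere and contractile genes encode the machinery that shortens a muscle fibre, and 45 of them were followed in RNA-seq of sorted, uncultured MuSCs (muscle stem cells, which lie beside the fibres and rebuild them after injury). They were taken by symbol from a list of muscle actins, myosins, troponins, tropomyosins, giant sarcomere proteins, Z disc and M band proteins, calcium-handling and energy proteins, membrane-linked proteins and the fusion protein myomaker (Mymk). Of the 45, 44 were found among the 22081 genes of the table, and Tnnc2 was not analysed here. A mean of at least 5 normalized counts was reached by 43 of them, which were tested among 18562 genes. Myl3, a slow-type myosin light chain, fell below that limit, with values of 2, 7 and 8 for the controls and 8, 2 and 2 for Taf4asKO. Here and below, values are normalized counts and are listed in the order of replicates 1 to 3.

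The study compared 3 control with 3 Taf4asKO libraries of C57BL/6 mice. Taf4asKO mice carried floxed Taf4a alleles (Taf4a fl/fl) and a tamoxifen-inducible Cre recombinase expressed from Pax7, the gene of the transcription factor that marks MuSCs, so that tamoxifen removed a pair of exons of Taf4 (formerly Taf4a, a subunit of the general transcription factor TFIID) in Pax7-expressing cells. The controls were littermates with Taf4a fl/fl, and the study's methods describe such controls both with and without the Pax7 Cre allele, so the control genotype of each library is known no further. Adult mice of both sexes were used, and the cells were sorted as Integrin α7-positive or GFP-positive cells lacking SCA1, CD45 and CD31, a sort that the methods describe as not fully pure.

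A sarcomere is built from thin filaments of actin with tropomyosin and troponin, and from thick filaments of myosin heavy and light chains with myosin-binding protein C. Titin and nebulin span it as giant rulers, α-actinins tie the thin filaments together at the Z disc, and myomesins hold the thick filaments at the M band. Adult fibres use fast or slow versions of these proteins. Embryonic and neonatal versions (Myh3, Myh8, Myl4, Actc1, Tnnt2) are used in development and again when MuSCs differentiate into myocytes and fuse, and quiescent MuSCs make little of either kind. Members were therefore described in 3 classes: 31 adult fibre genes, of which 30 were tested, 7 embryonic or differentiation genes, and 6 genes also used outside fibres.

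Total normalized counts lay between 12338676 and 14551732 per library. The MuSC markers Pax7 (10363 to 13007 normalized counts) and Vcam1 (3046 to 5401) were present in all 6 libraries. Taf4 itself had 613, 534 and 478 normalized counts in the controls and 631, 565 and 574 in Taf4asKO (log2 fold change 0.13, SE 0.12, adjusted p = 0.524, limma). The summed value of Taf4 thus did not separate the groups, values per exon were not analysed here, and the libraries are named by their labels. The paper reports efficient deletion of the exons in isolated MuSCs, with almost no Taf4a transcript (RT-qPCR) or protein (western blot) left. The value summed over the gene is a different measure. Control replicate 2 was the highest of the 3 controls for 34 of the 43 members tested (79.1%), against 41.3% of all genes tested, and values without that library are given where they change a call.

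A subset of the contractile genes fell in Taf4asKO, and most of them did not pass the threshold in either direction. With a threshold of Benjamini-Hochberg adjusted p under 0.05 over all genes tested (limma) and a fold change of at least 1.3, 10 of the 43 members passed. They were 8 members lower in Taf4asKO (Mymk, Actc1, Actn3, Dmpk, Tnnt1, Atp2a1, Mybpc1 and Dmd) and 2 higher (Mylk2 and Myom1). Over all genes tested, 12.6% passed, 6.71% as lower and 5.93% as higher in Taf4asKO. The median log2 fold change was 0.26 over the members and 0.0040 over all genes, and 27 of the 43 members lay above 0; without control replicate 2 the median of the members was 0.47. In 12 members the groups did not overlap, where this held for 33.0% of all genes; these were the 10 that passed together with Ryr1 and Tpm3. In bulk RNA, a smaller number of cells of a type and less RNA per cell cannot be told apart.

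**Figure D1:**
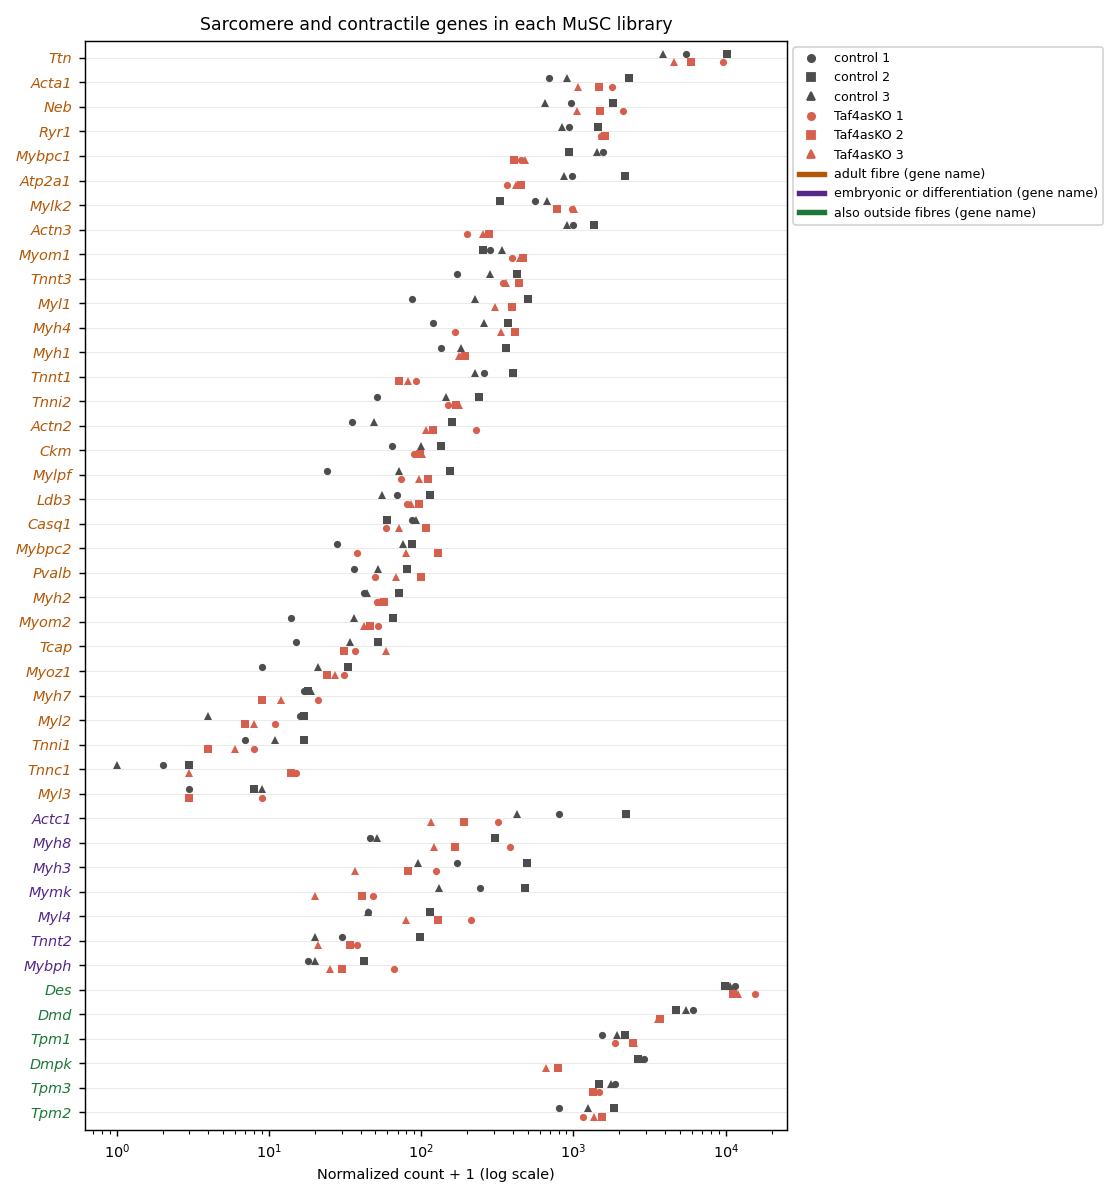
Normalized count plus 1 of each of the 44 members (log axis) in the 3 control libraries (grey) and the 3 Taf4asKO libraries (red), with a marker shape for each replicate number and the gene names coloured by class. The Taf4asKO points of Mymk, Actc1, Actn3, Dmpk, Tnnt1, Atp2a1, Mybpc1 and Dmd lie left of all their control points, while those of most adult fibre genes lie within or above the control range.

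**Figure D2:**
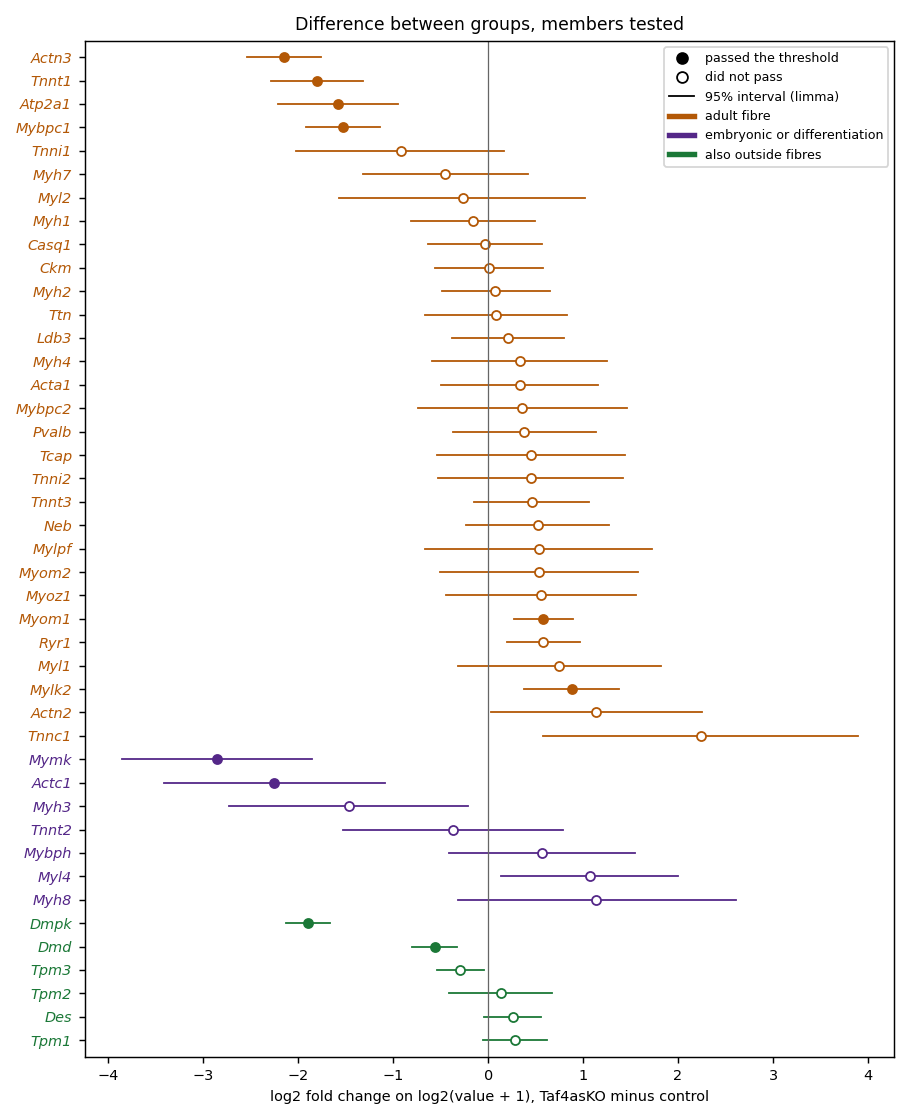
Log2 fold change (Taf4asKO minus control, on the log2(value + 1) scale) of the 43 members tested, with 95% intervals from limma, sorted within each class. Filled points are the 10 members that passed the threshold, from -2.86 for Mymk to 0.88 for Mylk2, and open points are those that did not.

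The count depended on control replicate 2. Without that library 19 members passed, 9 lower and 10 higher, where 16.8% of all genes did. The 10 members above were among the 19, and the others were Acta1, Actn2, Myh8, Myl1, Myl4, Neb, Ryr1, Tnnt3 and Tpm3. With the replicate number as a block, 14 members and 18.1% of all genes passed, and Myh3, Myl4, Ryr1 and Tnnc1 joined the 10. With the mean log2 level of other adult fibre genes in each library as a covariate, 22 members and 17.4% of all genes passed. Actn3, Tnnt1, Mybpc1, Atp2a1, Dmd, Dmpk and Mymk passed in all 15 fits made with a fold limit of 1.3.

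Among the adult fibre genes, a set of 4 fell while the best known fibre transcripts did not pass the threshold in either direction. The 4 were Actn3, Tnnt1, Atp2a1 and Mybpc1, and 2 others, Mylk2 and Myom1, rose, so that 6 of 30 adult fibre genes passed (against 12.6% of all genes). The median of the 30 was 0.34, with 21 above 0. Without control replicate 2, 12 passed, 4 lower and 8 higher, with a median of 0.62, where 16.8% of all genes passed. With the fibre covariate 14 passed, 4 lower and 10 higher, where 17.4% of all genes did. Of the genes that make up this covariate 9 fell themselves, so the fit is not independent of the difference between the groups, although the covariate overlapped between them (5.34 to 5.96 in the controls and 5.40 to 5.45 in Taf4asKO). By fibre type, 2 of 11 genes of all fibres, 3 of 14 fast genes and 1 of 5 slow genes passed, beside 12.6% of all genes and on few genes each.

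Actn3 (mm10 chr19:4861223-4877909, minus strand) encodes the α-actinin of fast fibres, which crosslinks actin at the Z disc. It had 995, 1366 and 904 normalized counts in the controls and 198, 279 and 253 in Taf4asKO. Every Taf4asKO library lay far below every control library. The mean was 1088 ± 245 in the controls and 243 ± 41.4 in Taf4asKO (SD, n = 3 libraries per group), a log2 fold change of -2.15 (SE 0.18, adjusted p = 0.000123, limma).

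Atp2a1 (chr7:126445858-126463108, minus strand) encodes SERCA1, the pump that returns calcium to the sarcoplasmic reticulum of fast fibres. It had 977, 2168 and 870 normalized counts in the controls and 364, 453 and 417 in Taf4asKO. The groups did not overlap, although control replicate 2 stood well above the other controls. The mean was 1338 ± 721 in the controls and 411 ± 44.8 in Taf4asKO, a log2 fold change of -1.58 (SE 0.28, adjusted p = 0.00633, limma), and of -1.17 without control replicate 2. Exons of Rabep2 on the opposite strand cover 21.9% of the exon bases of Atp2a1, and whether reads were counted by strand is not stated.

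Mybpc1 (chr10:88518279-88605152, minus strand) encodes slow-type myosin-binding protein C, which fast fibres contain as well. It had 1567, 936 and 1426 normalized counts in the controls and 449, 405 and 476 in Taf4asKO. Here control replicate 2 was the lowest control, unlike in most members, and still exceeded every Taf4asKO library. The mean was 1309.7 ± 331 in the controls and 443 ± 35.8 in Taf4asKO, a log2 fold change of -1.53 (SE 0.18, adjusted p = 0.000760, limma).

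Tnnt1 (chr7:4504570-4516004, minus strand) encodes slow troponin T, which anchors the troponin complex to tropomyosin. It had 256, 398 and 226 normalized counts in the controls and 92, 71 and 81 in Taf4asKO, with no overlap. The mean was 293 ± 91.9 in the controls and 81.3 ± 10.5 in Taf4asKO, a log2 fold change of -1.80 (SE 0.22, adjusted p = 0.000987, limma).

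The adult fibre genes that rose are a kinase and a structural protein. Mylk2 (chr2:152911352-152923068, plus strand), the skeletal muscle kinase of myosin regulatory light chains, had 562, 328 and 666 normalized counts in the controls and 970, 782 and 1012 in Taf4asKO. Its log2 fold change was 0.88 (SE 0.23, adjusted p = 0.0309, limma). Myom1 (chr17:71019521-71126856, plus strand), the M band protein myomesin 1, had 282, 252 and 340 in the controls and 394, 463 and 445 in Taf4asKO, a log2 fold change of 0.58 (SE 0.14, adjusted p = 0.0236, limma). In both genes every Taf4asKO library exceeded every control library. Both calls depended on single libraries or on the scaling. Mylk2 did not pass when any single Taf4asKO library was left out (adjusted p = 0.0655 to 0.119, limma) or when libraries were scaled to their total (0.0622) or upper quartile (0.0578) or with the fibre covariate (0.0577), and its log2 fold change was 0.58 without control replicate 2. Myom1 did not pass without control replicate 1 (0.0569), Taf4asKO replicate 2 (0.116) or Taf4asKO replicate 3 (0.103).

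Ryr1, the calcium release channel of the sarcoplasmic reticulum, showed a similar difference and missed the threshold. It had 930, 1446 and 844 normalized counts in the controls and 1525, 1617 and 1549 in Taf4asKO, with no overlap between the groups. Its log2 fold change was 0.58 (SE 0.17, adjusted p = 0.0533, limma). The adjusted p was 0.00916 with the replicate block and 0.00143 without control replicate 2.

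The transcripts by which a fibre is usually recognised differed by less than the spread between libraries. Acta1, the adult skeletal α-actin, had 685, 2330 and 903 normalized counts in the controls and 1802, 1467 and 1078 in Taf4asKO. Taf4asKO lay inside the control range, which spanned more than the distance between the groups (log2 fold change 0.33, 95% interval -0.50 to 1.16, adjusted p = 0.611, limma). Without control replicate 2 it was 0.85 (adjusted p = 0.0276, limma), and without control replicate 1 it was -0.033. Ckm, muscle creatine kinase, had 63, 133 and 99 in the controls and 88, 97 and 100 in Taf4asKO (0.013, interval -0.56 to 0.58).

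The adult fast myosin heavy chains, the motors of fast fibres, gave intervals that included 0. Myh4 (type IIb) had 118, 373 and 259 normalized counts in the controls and 165, 410 and 334 in Taf4asKO, a log2 fold change of 0.33 (interval -0.59 to 1.25). Myh1 (type IIx) had 134, 357 and 182 against 184, 192 and 176 (-0.16, interval -0.81 to 0.49), and Myh2 (type IIa) had 41, 70 and 43 against 50, 56 and 52 (0.077, interval -0.49 to 0.65). In all of these the highest or lowest control lay outside the Taf4asKO values. The myosin genes share sequence: 11.9% of the 75-base windows of Myh1 occur in transcripts of Myh2, and 10.7% of those of Myh2 in Myh1. Over all other genes and both strands, antisense transcripts at the same place included, the shares were 20.9% for Myh1 and 15.5% for Myh2. Reads that map to several places were removed by the authors.

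Ttn, which encodes the giant protein titin, had 5514, 10273 and 3886 normalized counts in the controls and 9554, 5937 and 4600 in Taf4asKO (log2 fold change 0.082, interval -0.66 to 0.83). Neb, for nebulin, had 958, 1815 and 648 against 2103, 1494 and 1057 (0.52, interval -0.23 to 1.27). Control replicate 2 and Taf4asKO replicate 1 were the highest libraries of their groups for both, and the groups overlapped. Actn2, the α-actinin of all fibres, had 34, 159 and 48 against 228, 119 and 106 (1.14, interval 0.032 to 2.25, adjusted p = 0.162, limma). Without control replicate 2 both Actn2 (log2 fold change 1.79, adjusted p = 0.0105, limma) and Neb (0.92, adjusted p = 0.0498, limma) passed.

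The remaining fast and general fibre genes also overlapped between groups. They were the fast troponins Tnni2 and Tnnt3, the fast myosin light chains Myl1 and Mylpf, Mybpc2, Myom2, the Z disc proteins Myoz1, Tcap and Ldb3, the calcium buffers Pvalb and Casq1. Their log2 fold changes ran from -0.029 for Casq1 to 0.75 for Myl1, and their adjusted p from 0.297 for Tnnt3 to 0.959 for Casq1. Without control replicate 2, Myl1 (1.37, adjusted p = 0.0297, limma) and Tnnt3 (0.78, adjusted p = 0.0403, limma) passed as higher, and with the fibre covariate Myl1, Mylpf, Tnni2, Tnnt3, Myom2 and Myoz1 did. Tnnt3 had 170, 425 and 284 normalized counts in the controls and 344, 436 and 357 in Taf4asKO.

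**Figure D3:**
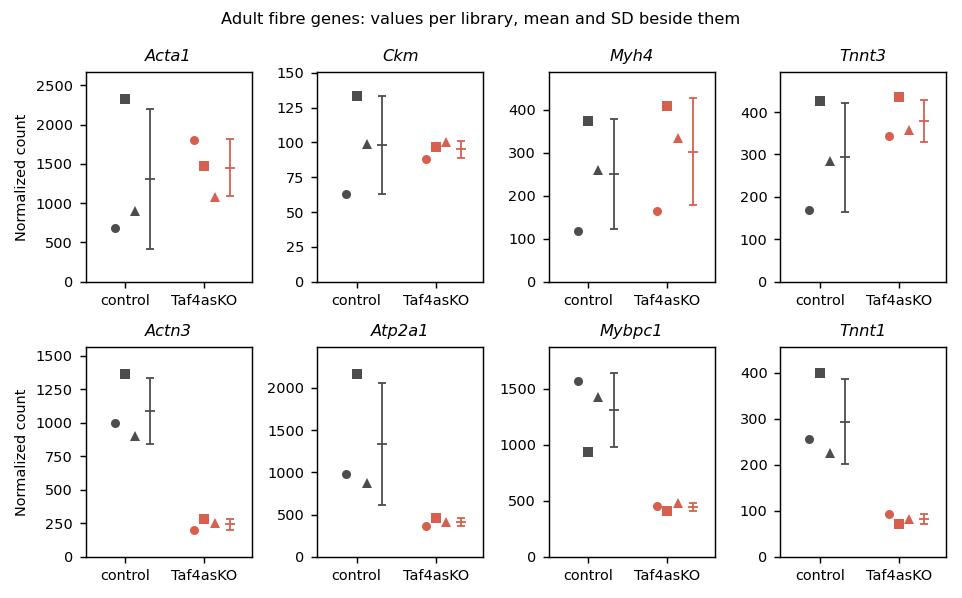
Normalized counts of 8 adult fibre genes in each library, with the mean and SD (n = 3) drawn beside the points of each group. Acta1, Ckm, Myh4 and Tnnt3 (top) overlap between groups, whereas Actn3, Atp2a1, Mybpc1 and Tnnt1 (bottom) are lower in all 3 Taf4asKO libraries than in any control library.

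The slow fibre genes were close to the lower limit of the table, with Tnnt1 as the exception. On the scale of normalized counts per kb of annotated exon, Tnnt1 had a control mean of 133, whereas Myl2 had 5.81, Tnni1 2.96, Myl3 2.77, Myh7 1.97 and Tnnc1 0.961. Slow troponin T was thus far above the slow troponins I and C with which it forms a complex in slow fibres. The log2 fold changes of Tnni1 (-0.92), Myh7 (-0.45) and Myl2 (-0.27) did not pass the threshold. Tnnc1 had 1, 2 and 0 normalized counts in the controls and 14, 13 and 2 in Taf4asKO. Its fitted log2 fold change of 2.24 (SE 0.74, adjusted p = 0.0764, limma) rests on these low values and was 3.57 with a pseudocount of 0.1. The adjusted p of Tnnc1 was 0.0229 with the replicate block (limma). Tnnc1 reached the mean needed for testing only through Taf4asKO, since all its control values lie below that limit. These fits cannot decide whether Tnnc1 differs, because the gene was admitted to the test by its own difference.

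Levels of adult fibre genes varied widely within both sets. In the controls the mean level per kb was 375 for Actn3, 385 for Atp2a1 and 289 for Mybpc1, against 33.8 for Ckm, 41.6 for Myh4 and 21.2 for Actn2. In Taf4asKO it was 83.9, 118 and 97.9 for the first group, against 32.6, 50.4 and 39.8. Acta1, which did not pass, was higher than all of these, at 850.3 in controls and 943 in Taf4asKO, and Tnnt1, at 133 in controls, was below Tnnt3 at 185. Desmin (Des), the intermediate filament protein that MuSCs also make, had the highest level per kb of all members in both groups, at 2847 in controls and 3441 in Taf4asKO.

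Of the 7 embryonic or differentiation genes, Mymk and Actc1 fell, and the other 5 did not pass, with log2 fold changes on both sides of 0. Over all genes tested, 12.6% passed. The median of the 7 was -0.37. Without control replicate 2 the median was 0.29, and 4 passed, 2 lower (Mymk and Actc1) and 2 higher (Myh8 and Myl4), where 16.8% of all genes did. All 7 were highest among the controls in replicate 2. With the replicate block 4 passed, 3 of them lower and 1 higher, where 18.1% of all genes did.

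Mymk (chr2:27061636-27072179, minus strand) encodes myomaker, the membrane protein that myocytes need to fuse, and showed the greatest fall of the 43 members. It had 241, 476 and 129 normalized counts in the controls and 47, 40 and 19 in Taf4asKO. The highest Taf4asKO library held fewer than the lowest control library. The mean was 282 ± 177 in the controls and 35.3 ± 14.6 in Taf4asKO, a log2 fold change of -2.86 (SE 0.45, adjusted p = 0.00350, limma) and of -2.38 without control replicate 2.

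Actc1 (chr2:114047282-114052887, minus strand) encodes the α-actin of heart, which skeletal muscle makes before birth and in regeneration. It had 802, 2228 and 427 normalized counts in the controls and 320, 191 and 115 in Taf4asKO. The mean was 1152 ± 950.2 in the controls and 209 ± 104 in Taf4asKO, a log2 fold change of -2.25 (SE 0.52, adjusted p = 0.0203, limma). The groups did not overlap, and the fall was -1.61 (adjusted p = 0.0310, limma) without control replicate 2. Without Taf4asKO replicate 2 or 3 the call was lost (adjusted p = 0.0775 and 0.0845, limma).

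The developmental myosin heavy chains did not pass, and their log2 fold changes had opposite signs. Myh3, the embryonic form, had 171, 496 and 94 normalized counts in the controls and 124, 81 and 36 in Taf4asKO, a log2 fold change of -1.47 (SE 0.57, adjusted p = 0.117, limma). The adjusted p was 0.00736 with the replicate block and 0.256 without control replicate 2. Myh8, the neonatal form, had 45, 306 and 50 in the controls and 383, 165 and 121 in Taf4asKO (1.14, SE 0.66, adjusted p = 0.283, limma), and without control replicate 2 its log2 fold change was 2.03 (adjusted p = 0.0156, limma). Control replicate 2 alone brought the control range of Myh8 into that of Taf4asKO.

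For Myl4, the embryonic and atrial myosin light chain, the sign was that of Myh8. It had 44, 114 and 44 normalized counts in the controls and 212, 127 and 78 in Taf4asKO (log2 fold change 1.07, SE 0.42, adjusted p = 0.124, limma). It passed with the replicate block (adjusted p = 0.0378, limma) and without control replicate 2 (1.52, adjusted p = 0.0255, limma). Tnnt2, cardiac troponin T, had 29, 97 and 19 against 37, 33 and 20 (-0.37), and Mybph, myosin-binding protein H, had 17, 41 and 19 against 65, 29 and 24 (0.57). Both overlapped between groups. Exons of Adora1 on the opposite strand cover 49.9% of the exon bases of Mybph, so its value is uncertain.

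**Figure D4:**
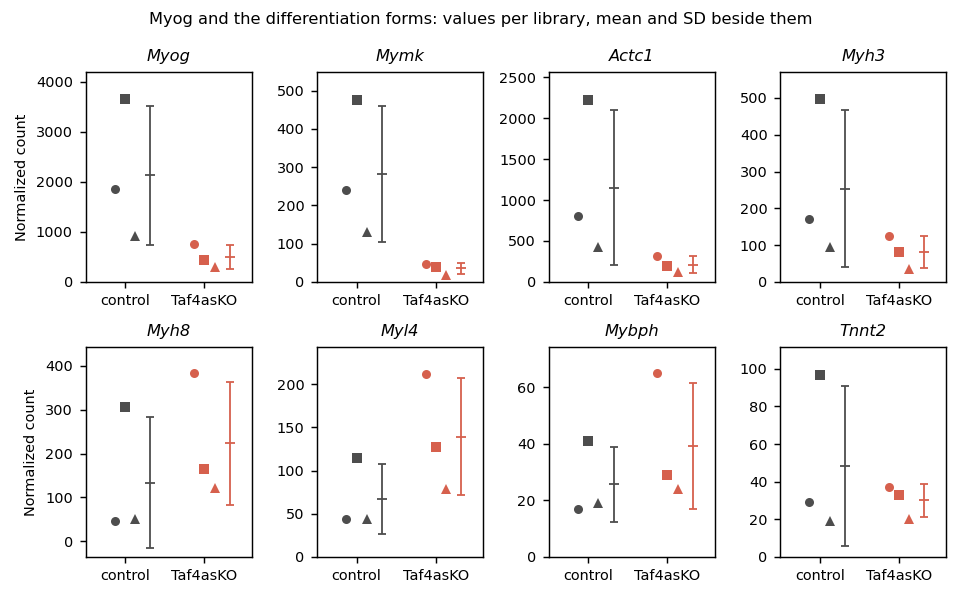
Normalized counts in each library of Myog, the transcription factor of myocyte differentiation, and of the 7 embryonic or differentiation genes, with the mean and SD (n = 3) beside the points. Myog, Mymk and Actc1 are lower in all 3 Taf4asKO libraries than in any control library, and control replicate 2 (square) is the highest control in all 8 panels.

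Pairs of related members were also set against each other. The choice of the 5 pairs was made with their values in view, and each was compared as a log2 ratio within a library, for which an exact two-sided permutation test over the 20 splits of 6 libraries gives at least p = 0.1. The ratio of Actc1 to Acta1 was -0.31 ± 0.69 in the controls and -2.89 ± 0.37 in Taf4asKO (SD, n = 3 libraries per group), with no overlap (exact permutation p = 0.1, 0.125 adjusted over the 5 pairs). The ratio of Myh3 to Myh8 was 1.93, 0.70 and 0.91 in the controls and -1.63, -1.03 and -1.75 in Taf4asKO. Embryonic exceeded neonatal myosin in each control library, including replicate 2, and neonatal exceeded embryonic myosin in each Taf4asKO library. These are normalized counts that are not divided by length. Per kb of exon, Myh3 had 20.5, 13.4 and 5.94 in Taf4asKO and Myh8 had 32.5, 14.0 and 10.3, nearly equal in replicate 2.

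Tnnt1 relative to Tnnt3 had a log2 ratio of 0.055 ± 0.48 in the controls and -2.22 ± 0.36 in Taf4asKO, and Actn3 relative to Actn2 had 4.07 ± 0.90 and 0.76 ± 0.83. The groups did not overlap in these pairs or in Myh3 to Myh8, and each had the same exact permutation p of 0.1 (0.125 adjusted). Mybpc1 relative to Mybpc2 had 4.52 ± 1.23 and 2.62 ± 0.97, with overlap (exact permutation p = 0.200). With the pairs chosen in this way and p no lower than 0.1 possible, these ratios are descriptions of the libraries.

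Divided by exon length, the myosin heavy chain signal was a mixture of adult and developmental forms in every library. Myh3 held 35.1%, 34.4% and 15.6% of the summed level per kb of the 6 heavy chains for the controls and 17.2%, 9.94% and 5.50% for Taf4asKO. Myh4 held 24.4%, 26.1% and 43.2% in the controls and 23.1%, 50.7% and 51.4% in Taf4asKO. The groups overlapped for both. Myh7, the heavy chain of slow fibres, held at most 2.31% in any library. These shares are descriptions with 3 libraries per group and no test.

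**Figure D5:**
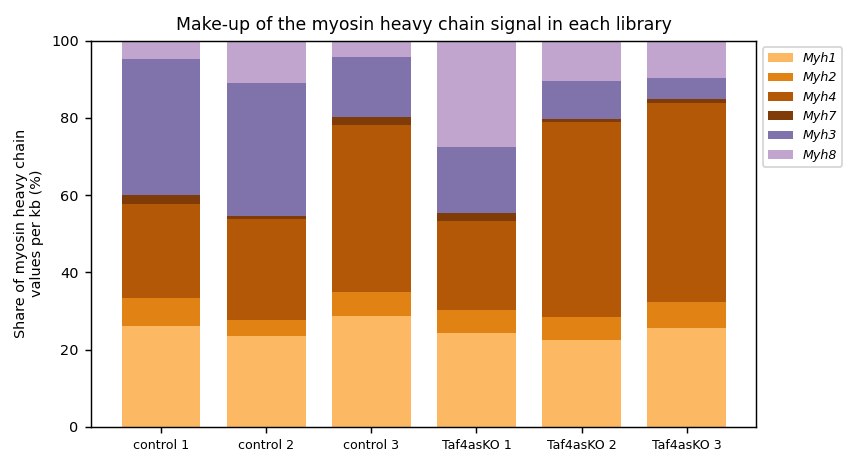
Share of each of 6 myosin heavy chain genes in their summed normalized counts per kb of exon, in each library. Adult forms are in orange and brown, and embryonic Myh3 and neonatal Myh8 in purple; Myh3 holds 15.6% to 35.1% in the controls and 5.50% to 17.2% in Taf4asKO, and Myh8 reaches 27.4% in Taf4asKO replicate 1.

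Of the 6 genes also used outside fibres, Dmpk and Dmd fell, where 12.6% of all genes passed. Dmpk (chr7:19083849-19093821, plus strand) encodes the myotonic dystrophy protein kinase. It had 2907, 2670 and 2741 normalized counts in the controls and 775, 794 and 659 in Taf4asKO. The libraries of each group lay close together, and the means were 2773 ± 122 and 743 ± 73.1. Its log2 fold change of -1.90 (SE 0.10, adjusted p = 1.88e-05, limma) ranged from -1.95 to -1.82 when single libraries were left out.

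Dmd (chrX:82948903-85206141, plus strand) encodes dystrophin, which links the cytoskeleton to the membrane and in MuSCs takes part in cell polarity. It had 6093, 4706 and 5463 normalized counts in the controls and 3626, 3711 and 3598 in Taf4asKO, a log2 fold change of -0.56 (SE 0.11, adjusted p = 0.00844, limma). The Taf4asKO libraries agreed closely with each other and lay below every control.

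Des had 11510, 9876 and 10679 normalized counts in the controls and 15630, 11163 and 11955 in Taf4asKO (log2 fold change 0.26, interval -0.039 to 0.56, adjusted p = 0.234, limma). The tropomyosins, which lie along actin in muscle and other cells, had log2 fold changes of 0.28 (Tpm1), 0.13 (Tpm2) and -0.30 (Tpm3). Tpm3 did not overlap between groups, with 1869, 1466 and 1765 against 1462, 1336 and 1338, and its adjusted p was 0.110 (limma), or 0.0176 without control replicate 2. Of its 75-base windows 19.1% occur in transcripts of other genes.

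Promoters are shown to set the start regions of members that passed side by side. Of the 7 that passed and whose RefSeq promoter sequence (GRCm38.p6) was at hand, the 6 with the largest absolute fold changes are printed, 5 that fell and Myom1, which rose. Each sequence is the 250 bases before the annotated start of the gene, 5′ to 3′ on the gene's strand, and capitals mark matches to the E-box (CANNTG, the site of myogenic helix-loop-helix factors such as Myog), the TATA box (TATAAA), the M-CAT motif (CATTCC), and the MEF2 and CArG motifs (the latter the site of serum response factor), searched on both strands.
Actc1, chr2:114052876-114053125, minus strand: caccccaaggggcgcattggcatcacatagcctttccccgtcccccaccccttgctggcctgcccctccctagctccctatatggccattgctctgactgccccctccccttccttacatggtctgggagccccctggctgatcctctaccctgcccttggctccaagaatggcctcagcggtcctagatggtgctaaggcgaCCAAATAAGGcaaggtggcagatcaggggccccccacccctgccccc
Dmpk, chr7:19083608-19083857, plus strand: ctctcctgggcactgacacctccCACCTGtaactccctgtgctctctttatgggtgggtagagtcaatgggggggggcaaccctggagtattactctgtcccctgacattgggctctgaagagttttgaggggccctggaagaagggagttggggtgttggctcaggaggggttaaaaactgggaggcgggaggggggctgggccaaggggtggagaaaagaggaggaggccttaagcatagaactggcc
Tnnt1, chr7:4515976-4516225, minus strand: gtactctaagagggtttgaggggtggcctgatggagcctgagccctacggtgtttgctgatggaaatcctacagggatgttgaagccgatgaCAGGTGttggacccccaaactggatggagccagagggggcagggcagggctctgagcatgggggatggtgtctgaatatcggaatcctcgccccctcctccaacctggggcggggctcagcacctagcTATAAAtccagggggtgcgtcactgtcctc
Atp2a1, chr7:126463074-126463323, minus strand: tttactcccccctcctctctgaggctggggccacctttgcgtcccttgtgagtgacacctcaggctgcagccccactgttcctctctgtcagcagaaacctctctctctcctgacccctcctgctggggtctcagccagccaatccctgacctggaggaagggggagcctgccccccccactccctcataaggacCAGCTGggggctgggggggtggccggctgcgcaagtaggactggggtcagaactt
Mybpc1, chr10:88605153-88605402, minus strand: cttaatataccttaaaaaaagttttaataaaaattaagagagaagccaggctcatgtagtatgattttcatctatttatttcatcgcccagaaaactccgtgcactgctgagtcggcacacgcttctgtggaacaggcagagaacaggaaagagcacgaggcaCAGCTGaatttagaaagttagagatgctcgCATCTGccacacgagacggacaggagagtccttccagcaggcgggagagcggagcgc
Myom1, chr17:71019307-71019556, plus strand: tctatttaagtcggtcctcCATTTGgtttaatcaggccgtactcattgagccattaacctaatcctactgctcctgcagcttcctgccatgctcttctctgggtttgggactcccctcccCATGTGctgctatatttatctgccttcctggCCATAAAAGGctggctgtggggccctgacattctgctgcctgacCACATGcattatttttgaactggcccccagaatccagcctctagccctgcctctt

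Dmpk, Tnnt1, Atp2a1, Mybpc1 and Myom1 contained an E-box, as did 66.2% of 32851 promoter windows of the same length. Actc1 had a CArG match, CCAAATAAGG, at positions -47 to -38 from the start, and Myom1 had one, CCATAAAAGG, at -99 to -90, where 1.47% of all windows held this motif. Tnnt1 carried TATAAA at -30 to -25 (12.4% of all windows). The window of Dmd, which is not printed, held 2 E-boxes, a CArG match at -98 to -89, and a MEF2 match at -244 to -235 that overlapped a TATA box on the other strand at -245 to -240. MEF2 occurred in 2.92% of all windows and M-CAT, which had no match in the 7, in 12.6%. In the 6 printed windows no matches overlapped and MEF2 had no match. Matches describe the letters and not binding.

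Other genes of the same machinery were read from a list of 55 adult fibre genes that holds no member, of which 53 were in the table and 49 tested; Mybpc3 and Trim54 were not analysed here. Of the 49, 10 passed, 9 lower and 1 higher, with a median of -0.23, where 6.71% of all genes passed as lower and 5.93% as higher. The median was -0.087 without control replicate 2 and 0.036 with the fibre covariate. The falls included Lmod2, an actin nucleator of the thin filament, with 531, 288 and 251 normalized counts in the controls and 88, 52 and 53 in Taf4asKO (log2 fold change -2.42). Klhl41, a stabiliser of nebulin, had 220, 485 and 157 against 82, 53 and 38 (-2.20). Sgca, α-sarcoglycan of the dystrophin complex, had 389, 421 and 425 against 127, 108 and 101 (-1.87), and Stac3, which couples excitation to calcium release, had 238, 238 and 191 against 84, 90 and 70 (-1.44).

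The other falls were Mylk4 (-1.65), Sypl2 (-1.24), Asb2 (-0.99), Jsrp1 (-0.62) and Pdlim3 (-0.49), and Xirp1 rose (0.80). Mb, myoglobin, had 73, 212 and 77 in the controls and 91, 93 and 84 in Taf4asKO. As among the members, then, the list held genes that fell without overlap beside fibre genes whose groups overlapped. Without Taf4asKO replicate 2 or without replicate 3, 5 of these genes passed, where 962 and 960 genes passed in all, and 16 passed with the fibre covariate (17.4% of all genes), which was built from this same list.

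Regulators of differentiation stood beside the members that fell. Of 17 tested, 8 passed, all lower in Taf4asKO, where 6.71% of all genes did. Myog had 1846, 3642 and 910 normalized counts in the controls and 765, 441 and 293 in Taf4asKO (log2 fold change -1.98, SE 0.45), and the acetylcholine receptor subunits Chrna1 (-1.49) and Chrnd (-1.85), the cell cycle inhibitor Cdkn1c (-1.69), the receptor-clustering adaptor Dok7 (-1.51), the RNA-binding protein Rbm24 (-1.12), Myf5 (-0.85) and the cadherin Cdh15 (-0.52) fell as well. Myog was highest in control replicate 2 and lowest in Taf4asKO replicate 3, as were Mymk, Actc1 and Myh3. The count was 5 without control replicate 1 and 4, 3 and 2 without Taf4asKO replicates 1, 2 and 3. In other fits 1 regulator passed as higher. With the replicate block 9 were lower and 1 higher, where 18.1% of all genes passed. Without control replicate 2 they were 6 and 1 (16.8% of all genes), and with the fibre covariate 5 and 1 (17.4%). Myod1, the factor of myoblast commitment, had 1088, 1544 and 764 against 1834, 1502 and 1009 and did not pass.

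Summed over the members in the table, the adult fibre class held 13736, 24266 and 12463 normalized counts in the controls and 19522, 15507 and 13121 in Taf4asKO. The sums are not divided by length, and the long gene Ttn alone held 5514, 10273 and 3886 in the controls and 9554, 5937 and 4600 in Taf4asKO. The embryonic or differentiation class held 1349, 3758 and 782 against 1188, 666 and 413. Both sums overlapped between groups, and control replicate 2 was the highest library in each.

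Markers of other cell types were read from fixed lists, beside a background of 12.6% of all genes passing. Of the Schwann cell markers, Sox10 had 185, 534 and 420 normalized counts in the controls and 734, 1016 and 900 in Taf4asKO (log2 fold change 1.34, SE 0.32), and Cdh19 had 129, 269 and 257 against 537, 714 and 539 (1.51, SE 0.25), and both passed as higher. The smooth muscle and pericyte markers summed to 20856 to 24569 against 27612 to 30300, with Myh11 and Rgs5 of 10 passing as higher, and 5 of 10 passing with the replicate block. Des is itself on that list, and without it the sums of the other 9 genes overlapped between groups, at 9346, 14693 and 12194 in the controls and 14670, 17336 and 15657 in Taf4asKO. Of 10 fibro-adipogenic markers 3 passed, with Gsn higher and Col3a1 and Dpt lower, and 8 passed with the replicate block, 6 higher and 2 lower; the sums were 72400 to 116385 and 67958 to 102475, and Ly6a, which encodes SCA1, was at 2 to 14. Of the 12 MuSC markers 7 passed, 4 lower (among them Myf5 and Cdh15, already counted as regulators) and 3 higher, and they summed to 52385 to 56675 and 55695 to 58451.

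Of the 6 endothelial markers 0 passed (limma), with 4 at an unadjusted p under 0.05 and 2 passing with the replicate block. They summed to 879 to 1277 in the controls and 1392 to 1700 in Taf4asKO, and Emcn and Cldn5 were at 1 to 18 and 1 to 20. Of 6 blood and immune markers 0 passed (limma), with 1 at an unadjusted p under 0.05 and 1 with the replicate block, and they summed to 454 to 658 and 744 to 1027. The 53 other fibre genes summed to 6692 to 9011 in the controls and 4781 to 5390 in Taf4asKO, and their mean log2 level was 5.34, 5.96 and 5.63 in the controls and 5.45, 5.45 and 5.40 in Taf4asKO. The part of these cell types in the members' values was not tested.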

How the data were processed

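RNA-seq libraries of 3 control and 3 Taf4asKO MuSC samples were analysed. According to the study's methods and the submitters' processing notes, the authors trimmed reads (Trimmomatic 0.39), aligned them to mm10 (STAR 2.6.0c), removed multi-mapping reads and those overlapping several genes, counted reads per gene (featureCounts 1.6.0) and normalized with DESeq2 1.14.1. The deposited values are a score, namely counts divided by size factors and rounded to whole numbers (the rounding is inferred from the values), and are called normalized counts. Read depth was not recovered here, and the number of libraries limits the precision. The table had 0 value columns without a sample.

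The test was limma's (version 3.58.1, R 4.3.3; intensity trend, two-sided) for genes with a mean of at least 5, on log2(value + 1), a scale that understates changes of low genes, with Benjamini-Hochberg adjustment over all 18562 genes. A count test had been planned for raw counts and was left out. The script was run on simulated data with known changes, an even spread and no outlying library. That run checks the code and not the test's behaviour on these libraries. Exon lengths (the union of annotated exons) and exon overlaps come from GENCODE M21, and gene positions from the table. All members were named, of the other lists the genes past the threshold and the most abundant or lowest markers; Mb and Myod1 were named after their values were seen. The members and lists were chosen with earlier results of these data known.

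Groups and replicate numbers come from the sample labels. Deviations from the group means correlated at 0.235, 0.126 and 0.150 between libraries of equal number, and at -0.149 to 0.014 between those of unequal number. The labels do not say what libraries of equal number share. The main fit took no account of the numbers, and only the replicate block did. The study describes its replicates as biological, and the labels do not tie the libraries to mice, so p-values measure the spread between these libraries. The alternatives were other pseudocounts, filters, scalings and fold limits, limma-voom, a fibre covariate, the replicate block and leaving out each library. Some Schwann cell markers are not reported here.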

Additional observations from a re-analysis of the deposited data

How the results depend on the processing

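Of 684 refitted values of members, 611 kept their direction and their side of the threshold, 31 passed where they had not, 14 no longer passed and 28 changed sign, in 16 members of which 0 had passed. The block by replicate number moved the count of embryonic or differentiation genes to 4 and, beside Myh3, Myl4, Ryr1 and Tnnc1, changed no other member's call. Tnnc1 was tested only because its Taf4asKO values raised its mean to the limit of the filter. The fibre covariate gave 22 members, 14 adult fibre genes, 4 embryonic or differentiation genes, 4 used outside fibres and 16 other fibre genes. A fold limit of 2 gave 850 genes in all, 1 member used outside fibres and 6 other fibre genes. Leaving out single libraries gave 960 to 3121 genes in all, 7 to 19 members, 4 to 12 adult fibre genes, 1 to 4 embryonic or differentiation genes, 2 to 3 members used outside fibres, 5 to 12 other fibre genes and 2 to 9 differentiation regulators. Signs changed under the fibre covariate for Myh1 (0.32) and Tnnt2 (0.25), and under upper-quartile scaling for Ckm (-0.025). With single libraries left out, log2 fold changes ranged from -0.033 to 0.85 for Acta1, from -0.27 to 0.16 for Casq1, from -0.27 to 0.26 for Ckm, from -0.020 to 0.51 for Ldb3, from -0.15 to 0.83 for Mybpc2, from -0.47 to 0.23 for Myh1, from -0.060 to 0.32 for Myh2, from -0.14 to 0.71 for Myh4, from -0.95 to 0.089 for Myl2, from -0.18 to 1.17 for Mylpf, from -0.057 to 1.05 for Myom2, from -0.045 to 0.85 for Tcap, from -0.17 to 0.94 for Tnni2, from -0.85 to 0.29 for Tnnt2, from -0.17 to 0.42 for Tpm2 and from -0.24 to 0.47 for Ttn. The causes of these shifts were not tested. The edgeR quasi-likelihood test planned for raw counts was not run.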
